A study of Drosophila melanogaster with 6 samples.

Results

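The genes described here encode the basement membrane, the sheet of extracellular matrix that underlies the sheath around the Drosophila melanogaster testis. The list named 10 genes, and 9 of them (Col4a1, vkg, LanA, LanB1, LanB2, wb, Ndg, SPARC and Ppn) were matched by symbol to the 17559 genes of the count table. The perlecan gene trol, the other listed gene, was not analysed here because its annotated identifier was not matched to a row. Testis RNA was sequenced in 3 control libraries (actin5C-Gal4>w1118) and 3 overexpression libraries (actin5C-Gal4>UAS-miR-2b-1), each from pooled adult testes of flies aged 3 to 5 days from crosses at 28 °C. Both groups carry the Actin5C driver, which expresses the yeast activator GAL4 broadly and not in the sheath alone, and the overexpression group also carries a UASp transgene of the microRNA miR-2b-1. The other parent of the control was w1118, whereas that of the overexpression group was the transgenic stock. The labels and the study's methods give w1118, but its data description names OreR for the sequenced control. Parental strain and transgene therefore cannot be told apart. Whole testes were used, so sheath cells, germ cells and any attached tissue share a library, and the labels do not separate the sheath. The study describes the overexpressing testes used for RNA as bulged. The shares of cell types in them were not measured here.

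Basement membranes are assembled from a small set of large secreted proteins. Laminins, trimers of an alpha, a beta and a gamma chain, bind receptors at the cell surface, collagen IV forms a second network that gives the sheet its strength, and nidogen and perlecan connect them. In flies, fat body cells and hemocytes secrete much of the collagen IV that tissues take up, and muscle and epithelial cells also make matrix. In the testis, basement membrane lies under the muscle and pigment cell layers of the sheath, and integrins hold the stem cell niche in place at the apex.

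The total count per library was 18047619 to 20282355 in the control and 21202512 to 27789620 under overexpression. Of the germline list, 17 of 17 matched genes had a mean of at least 1 CPM (counts-per-million of the scaled library total), as did 8 of 9 cyst cell genes. The transcript of mir-2b-1 had 0 CPM in each library, and the labels could not be checked with it. The 31 accessory gland and ejaculatory duct genes summed to 10000, 370 and 6700 CPM in the control and 582, 1390 and 11300 CPM under overexpression. Here and throughout, values of a group follow its replicates 1, 2 and 3, in this order. Libraries of both groups thus fell on either side of this difference.

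No basement membrane gene passed the test between the groups. With edgeR's quasi-likelihood test and Benjamini-Hochberg adjustment over all 17559 genes, 0 of the 9 genes had an adjusted p under 0.05, where 2.81% of all genes did (1.29% higher and 1.51% lower under overexpression). At an unadjusted p under 0.05, 1 of the 9 (SPARC, lower) was past the threshold, beside 14.7% of all genes, or 6.33% that were lower. Shares of all genes, here and below, include 1892 genes without counts. A mean of at least 1 CPM was reached by 11483 genes and by all 9 members. On simulated data the test missed most changes of the smaller size simulated, so the count of 0 does not show equal levels. With DESeq2, 1 of the 9 was called, again SPARC, beside 5.48% of the genes that were given an adjusted p. The median log2 fold change of the 9 genes was -0.50, and that of all genes was 0.00. The 4 laminin chains had fitted values just above 0, and the other 5 genes had negative ones. Testes were pooled within each sample, and p-values measure the spread between these pools. In such bulk RNA, fewer cells of a type and less RNA per cell cannot be told apart.

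**Figure D1:**
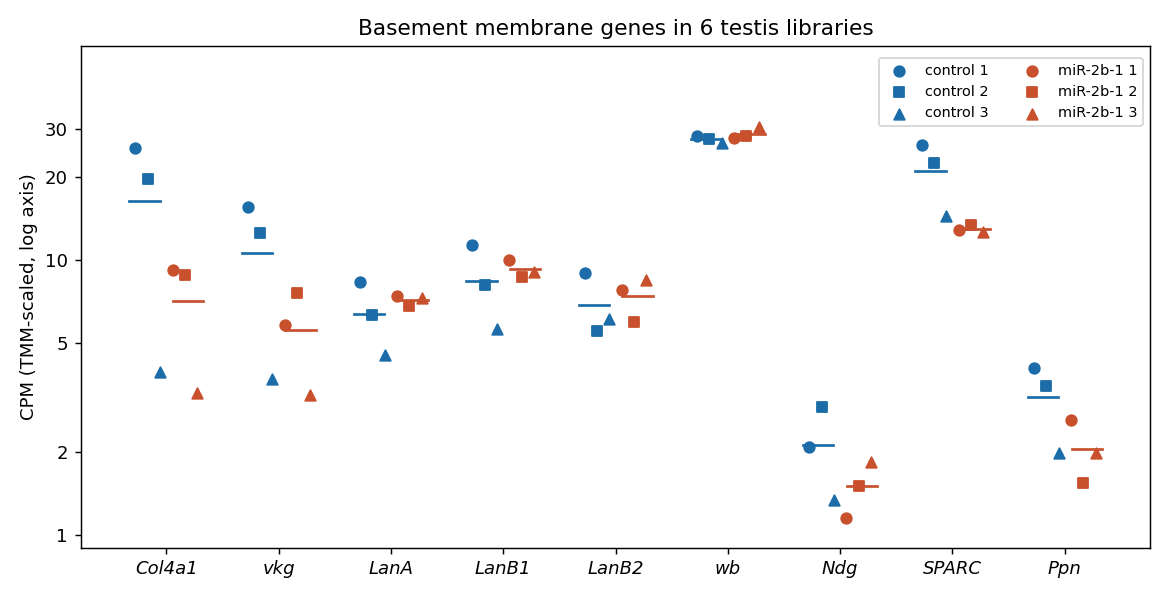
CPM of the 9 basement membrane genes in each library on a log axis. Blue points are the 3 control and orange points the 3 overexpression libraries, with shapes for the replicate number and bars for the group means. Only the points of SPARC are separated between the groups, while Col4a1 spans 3.28 to 25.4 CPM and wb only 26.6 to 30.4 CPM.

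SPARC encodes a secreted glycoprotein that binds collagen IV and is needed in flies for its normal deposition. The gene (FBgn0026562) lies on chromosome 3R from 26869238 to 26871995 (BDGP6, the dm6 assembly) and has 1.2 kilobases (kb) of exon sequence, the shortest of the 9. Its level was 26.2, 22.5 and 14.4 CPM in the control and 12.8, 13.3 and 12.6 CPM under overexpression. All 3 overexpression libraries were below all 3 control libraries, although control replicate 3 lay close to them. Among genes with a mean of at least 1 CPM, 11.2% showed this order by group. The means were 21.1 ± 6.04 CPM in the control and 12.9 ± 0.387 CPM under overexpression (SD, n = 3 each). The fitted log2 fold change was -0.71 (standard error 0.201, 95% interval -1.13 to -0.28, edgeR adjusted p = 0.0744). By this test the difference did not pass the threshold, but some alternatives called it. The edgeR adjusted p was 0.00548 without control replicate 3, 0.0142 with upper-quartile normalization and 0.0408 with the accessory gland sum as a covariate, and the DESeq2 adjusted p was 0.0268. Without control replicate 2 the edgeR adjusted p was 0.315, the highest of the fits that left out one library.

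Col4a1 and vkg (viking) encode the chains of fly collagen IV. They lie head to head on chromosome 2L, vkg (FBgn0016075) from 5012144 to 5028191 on the minus strand and Col4a1 (FBgn0000299) from 5029609 to 5037279 on the plus strand, with 1417 bases between their annotated starts. Col4a1 had 25.4, 19.7 and 3.92 CPM in the control and 9.17, 8.79 and 3.28 CPM under overexpression. Its highest library was 7.76-fold above its lowest, and the lowest control library lay next to the lowest overexpression library. The gene vkg had 15.5, 12.5 and 3.68 CPM in the control and 5.78, 7.61 and 3.24 CPM under overexpression, again with replicate 3 lowest in each group.

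The groups overlapped for both collagen IV chains. The log2 fold change of Col4a1 was -1.21 (standard error 0.855, 95% interval -3.54 to 1.12, edgeR adjusted p = 0.657). That of vkg was -0.94 (standard error 0.658, 95% interval -2.70 to 0.82, edgeR adjusted p = 0.651). These intervals are the widest of the 9 genes and reach to both sides of 0. Leaving out one library moved Col4a1 between -1.67 and -0.74 and vkg between -1.34 and -0.55, and the edgeR adjusted p of vkg without control replicate 3 was 0.0796. Over the 6 libraries, Col4a1 had a log2 range of 2.94 and vkg one of 2.24, where the median gene with at least 1 CPM had 0.689. Of such genes, 95.6% had a smaller range than Col4a1 and 94.0% a smaller one than vkg.

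The chains also differed in ratio between libraries. Per kilobase of exon, vkg over Col4a1 was 0.579, 0.604 and 0.891 in the control and 0.597, 0.820 and 0.938 under overexpression. The ratio was highest in the 2 libraries with the least collagen IV, one of each group. Col4a1, the denominator, was lowest there (3.92 CPM in the control and 3.28 CPM under overexpression), which by itself raises the ratio. Between the groups the log2 ratio differed by 0.19 (exact two-sided permutation test, p = 0.6, where 0.1 is the smallest p that 3 against 3 can give). SPARC over Col4a1 per kilobase was 5.30, 5.87 and 18.9 in the control and 7.18, 7.79 and 19.7 under overexpression. This ratio, with the same denominator, was also highest in replicate 3 of either group. Its log2 value differed by 0.30 between the groups (exact permutation p = 0.5), with a sign that turned to -0.03 without control replicate 1 and to -0.16 without overexpression replicate 3.

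**Figure D2:**
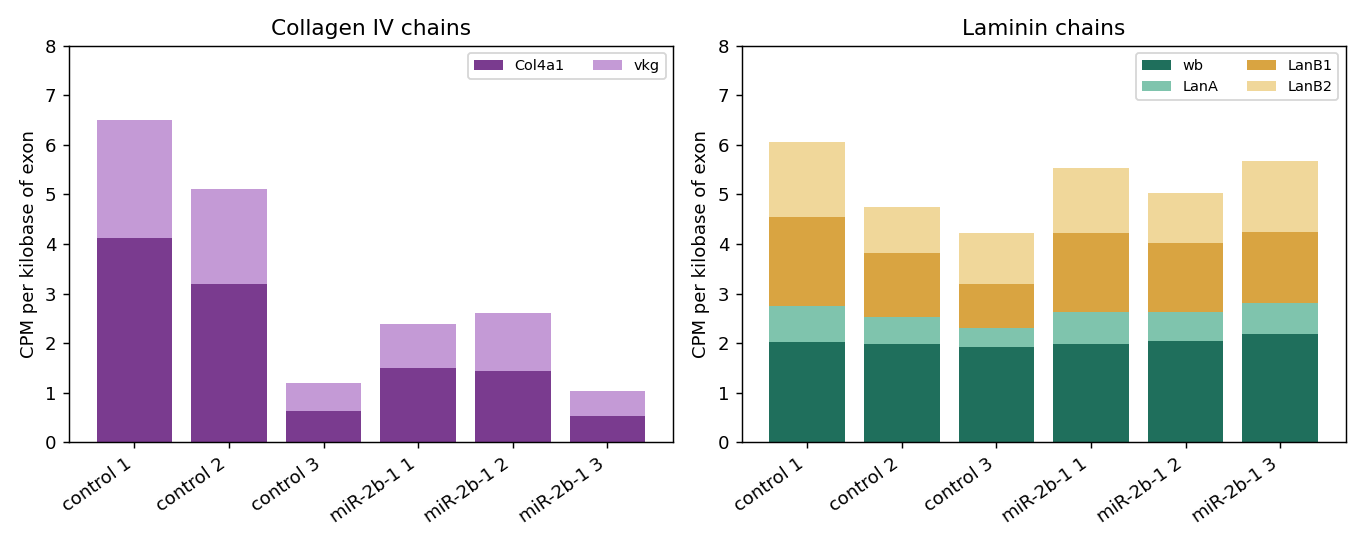
Stacked level of the collagen IV chains (left) and of the laminin chains (right) in each library, in CPM per kilobase of exon. Collagen IV summed to 1.03 to 6.51 and laminin to 4.22 to 6.07, so the bars on the left vary far more than those on the right.

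The laminin alpha chains are LanA and wb (wing blister). LanA (FBgn0002526) lies on chromosome 3L from 6203831 to 6218022 and wb (FBgn0261563) on 2L from 14263027 to 14328262, where its span holds or overlaps 4 other annotated genes without shared exon bases. The level of wb was 28.3, 27.6 and 26.6 CPM in the control and 27.7, 28.3 and 30.4 CPM under overexpression. Its 6 libraries stayed within 1.14-fold, a range smaller than that of all but 0.914% of genes with at least 1 CPM. The log2 fold change of wb was 0.07 (standard error 0.151, 95% interval -0.25 to 0.39, edgeR adjusted p = 0.986). LanA had 8.29, 6.32 and 4.50 CPM in the control and 7.40, 6.79 and 7.25 CPM under overexpression, and the overexpression libraries lay inside the control range. Its log2 fold change was 0.17 (standard error 0.231, 95% interval -0.32 to 0.65, edgeR adjusted p = 0.867).

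Of the 2 alpha chains, wb was the more abundant in every library. It made up 74.1% to 83.3% of the alpha chain level per kilobase. The ratio of wb to LanA per kilobase was 2.87, 3.67 and 4.98 in the control and 3.14, 3.51 and 3.52 under overexpression. The groups overlapped, with a log2 difference of -0.14 (exact permutation p = 0.7) that was 0.06 without control replicate 3.

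LanB1 encodes the only laminin beta chain and LanB2 the only gamma chain of the fly, and each trimer needs both. LanB1 (FBgn0261800, chromosome 2L, 7811438 to 7820771) had 11.4, 8.12 and 5.61 CPM in the control and 10.02, 8.70 and 9.07 CPM under overexpression. LanB2 (FBgn0267348, chromosome 3L, 9614914 to 9623980) had 8.95, 5.50 and 6.08 CPM in the control and 7.79, 5.97 and 8.44 CPM under overexpression. For both genes the overexpression values fell inside the control range. The log2 fold changes were 0.15 for LanB1 (standard error 0.231, edgeR adjusted p = 0.905) and 0.11 for LanB2 (standard error 0.231, edgeR adjusted p = 0.963). Their 95% intervals, -0.34 to 0.64 and -0.37 to 0.60, leave room for a difference of up to that size in either direction. LanB1 over LanB2 per kilobase ran from 0.869 to 1.39 over the 6 libraries, and its log2 ratio differed by 0.07 between the groups (exact permutation p = 0.7), with the opposite sign without control replicate 3 (-0.12) or overexpression replicate 2 (-0.03).

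Ndg encodes nidogen, which bridges laminin and collagen IV, and Ppn encodes papilin, a secreted matrix protein related to ADAMTS proteases. Both were sparse. Ndg (FBgn0026403, chromosome 2R, 10313891 to 10322104) had 23 to 57 counts per library, or 2.09, 2.93 and 1.34 CPM in the control and 1.16, 1.503 and 1.85 CPM under overexpression. Its log2 fold change was -0.50 (standard error 0.347, 95% interval -1.23 to 0.24, edgeR adjusted p = 0.591). Leaving out one library moved it between -0.74 (without control replicate 3) and -0.19 (without control replicate 2), and with the summed muscle markers as a covariate it was -1.47 (edgeR adjusted p = 0.442). Of its exon sequence, 158 bases (3.28%) overlap CG34222 on the other strand, and without strand information reads there cannot be assigned to one gene. Ppn (FBgn0003137, chromosome 3R, 28520665 to 28540324) had 34 to 74 counts per library, or 4.06, 3.50 and 1.99 CPM in the control and 2.62, 1.55 and 1.99 CPM under overexpression. Control replicates 1 and 2 were its highest libraries, and control replicate 3 was level with overexpression replicate 3. The log2 fold change of Ppn was -0.63 (standard error 0.318, 95% interval -1.30 to 0.04, edgeR adjusted p = 0.378).

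**Figure D3:**
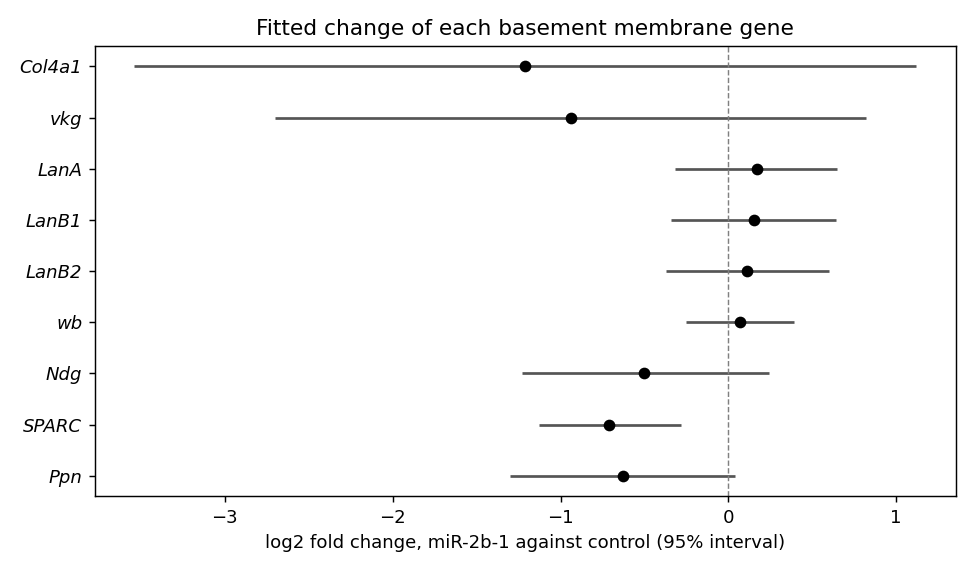
Fitted log2 fold change of each gene, overexpression against control (points), with its 95% interval from edgeR (lines). The interval of SPARC, -1.13 to -0.28, is the only one of the 9 that leaves out 0 before adjustment over all genes, and those of Col4a1 and vkg are the widest.

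Levels were ordered per kilobase of exon, which makes genes of different length comparable. SPARC was highest at 14.2 ± 4.89 CPM per kb (SD over the 6 libraries), above the next gene in 6 of 6 libraries and without overlap of their ranges. It was followed by wb at 2.02 ± 0.0905, Col4a1 at 1.90 ± 1.45, LanB1 at 1.40 ± 0.309, vkg at 1.24 ± 0.765 and LanB2 at 1.20 ± 0.246 CPM per kb. These 5 ranges overlapped between neighbours, so the order of neighbours is not larger than the spread between libraries. Beyond neighbours, the range of wb (1.92 to 2.19) lay above those of LanB1 (0.893 to 1.81) and LanB2 (0.93 to 1.51). LanB2 lay above LanA (0.578 ± 0.110 CPM per kb) in 6 of 6 libraries without overlap. LanA was above Ndg (0.376 ± 0.134) in 5 of 6 libraries, and Ndg above Ppn (0.274 ± 0.103) in 5 of 6, with overlapping ranges in both cases. Collagen IV over laminin per kilobase, each summed over its chains, was 1.07, 1.08 and 0.285 in the control and 0.430, 0.518 and 0.182 under overexpression.

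The 9 genes summed to 130, 109 and 68.2 CPM in the control and 84.4, 82.6 and 78.1 CPM under overexpression. The control libraries lay on both sides of the overexpression libraries. Within the libraries poor in accessory gland RNA (control replicate 2, overexpression replicates 1 and 2), the log2 ratio of overexpression to control was -1.13 for Col4a1, -0.91 for vkg and -0.78 for SPARC. Within those rich in it (control replicates 1 and 3, overexpression replicate 3), it was -2.16, -1.57 and -0.69. These 2 controls were far apart, with 25.4 and 3.92 CPM of Col4a1 and 15.5 and 3.68 CPM of vkg. For both genes the control mean thus rests mostly on control replicate 1. For Ndg the sign differed, with -1.14 among the poor and 0.11 among the rich libraries. A single library stands on one side in each of these ratios, so they have no test.

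Fat body and muscle markers were read beside the list. Of the 9 matched fat body genes, 0 were called by edgeR or DESeq2, and 0 had an unadjusted p under 0.05. Fbp1, which encodes a receptor for storage proteins, had 37.7, 20.1 and 7.54 CPM in the control and 4.28, 6.88 and 7.497 CPM under overexpression (log2 fold change -1.81, edgeR adjusted p = 0.354). The most abundant, apolpp, a lipoprotein precursor, had a log2 fold change of -0.11, and the yolk protein gene Yp3 one of 0.21. The 9 genes summed to 89.2 to 180 CPM in the control and 85.8 to 114 CPM under overexpression, and 6 of the 9 had the lower mean under overexpression. The yolk protein genes Yp1 and Yp2 and the gene to were below 1 CPM in every library. Control replicate 3 was below control replicates 1 and 2 in 5 of these 9 genes and in 8 of the 9 basement membrane genes, all but LanB2. The same order held in 12 of 17 germline genes and 4 of 9 cyst cell genes. Among hemocyte genes it held in 4 of 9, but of these NimC1, Sr-CI and NimC2 were below 1 CPM in every library. This order held in 2 of 31 accessory gland and ejaculatory duct genes, and its share over all genes was not computed. The part of fat body RNA in the collagen IV and SPARC levels was not tested.

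Of 19 matched muscle genes, 17 had the lower mean under overexpression. In 13 every overexpression library was below every control library, an order shown by 11.2% of genes with a mean of at least 1 CPM. In edgeR's test, 6 of the 19 fell and none rose at an adjusted p under 0.05, where 1.51% of all genes fell. DESeq2 called 13 of the 19, beside 5.48% of the genes that were given an adjusted p. The muscle genes summed to 1580, 1590 and 1690 CPM in the control and 1480, 1280 and 1260 CPM under overexpression, so the sum separated the groups. Most of it came from Act87E, an actin (log2 fold change -0.15, edgeR adjusted p = 0.751), and Msp300, a nesprin (log2 fold change 0.10, edgeR adjusted p = 0.958), neither of which was called. Mhc, the myosin heavy chain of muscle, had 83.6, 67.3 and 53.9 CPM in the control and 32.5, 33.5 and 41.3 CPM under overexpression. In 12 of the 19, control replicate 3 was also below the other control libraries, although its sum was the highest. With the muscle sum as a covariate, 0 of the 9 members were called. The log2 fold change was then -1.03 for SPARC (edgeR adjusted p = 0.331), -1.22 for Col4a1 (adjusted p = 0.954), -1.40 for vkg (adjusted p = 0.864) and -0.43 for Ppn (adjusted p = 0.930). Since the sum separated the groups, the sum and group cannot be told apart in this fit. The sum also did not follow those 12 genes across the control libraries, so the fit is not an adjustment for muscle RNA as a whole. Of the 9 matched hemocyte genes, NimC1, eater, He, Sr-CI and NimC2 (5 of the 9) were below 1 CPM in every library. The other 4 were higher. Hml had 3.96 to 9.69 CPM, crq 16.2 to 23.9 CPM, srp 10.2 to 13.2 CPM and ush 3.405 to 5.335 CPM. The hemocyte list summed to 38.6 to 46.0 CPM in the control and 42.8 to 50.1 CPM under overexpression. Of 10 pigment and eye colour genes, 2 were called, where 2.81% of all genes were. The gene w was higher (log2 fold change 0.83, edgeR adjusted p = 0.00704) and Hn lower (log2 fold change -5.35, edgeR adjusted p = 5.7e-10). Parental strain and transgene differ between the groups, and the part of sheath pigment cells in these levels was not tested.

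**Figure D4:**
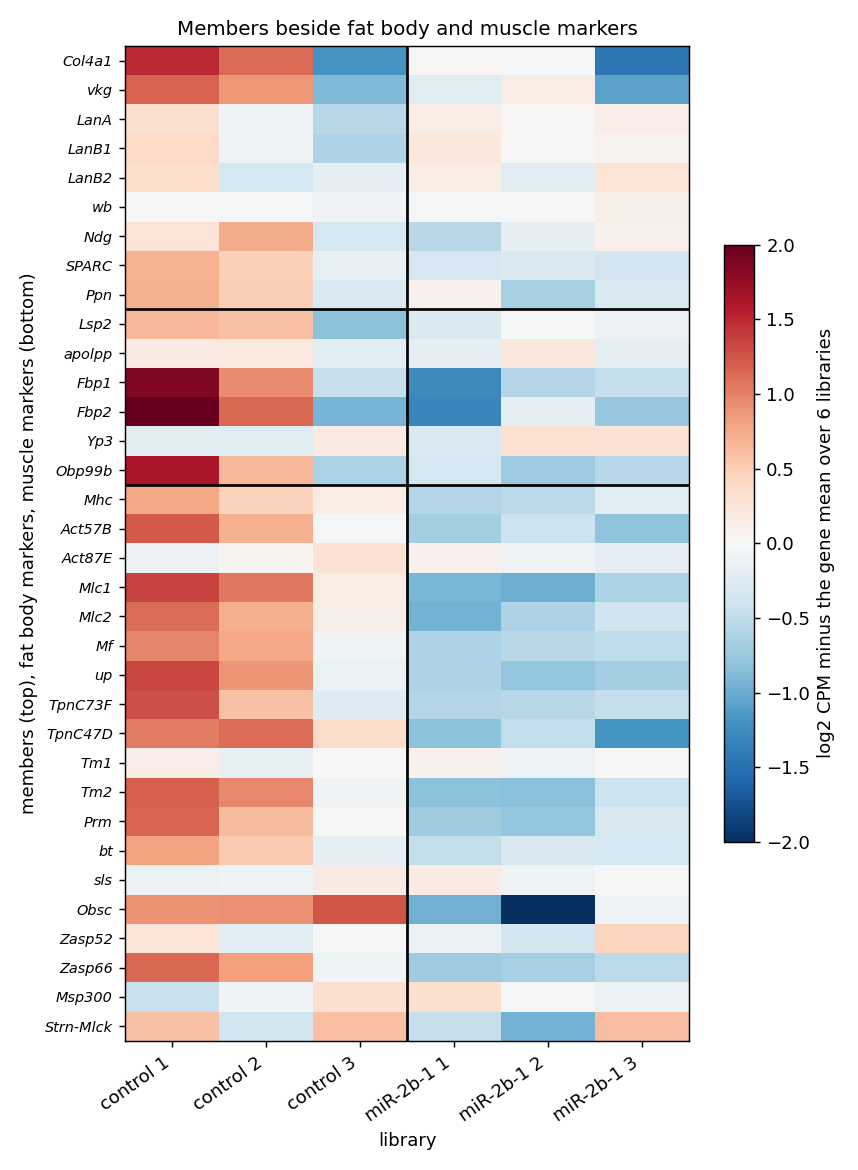
Centred log2 CPM (each gene minus its mean over the 6 libraries, prior count 1) for the 9 basement membrane genes, 6 fat body markers with at least 1 CPM and 19 muscle markers. Red is above and blue below the gene's mean. Control replicates 1 and 2 are red for Col4a1, vkg, SPARC and Ppn and for many markers, while the row of wb is nearly white.

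The profile of the members over the libraries was compared with that of 6884 other genes with a mean of at least 10 CPM. Likeness was measured as the mean absolute difference in centred log2 CPM over the 6 libraries. The closest were Trf4-1, a noncanonical poly(A) polymerase (0.0892), Glyp, glycogen phosphorylase (0.112), CG7409 (0.127), Tbcb, a tubulin folding cofactor (0.127), and stv, a co-chaperone (0.128). Of the members themselves, SPARC (0.173) and Ppn (0.186) were closest to the mean profile and Col4a1 (0.622) farthest. The profile is a mean of unlike members and no gene of the list follows it as closely as these 5.

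Genes that fold and export collagen were taken as a list of 18, of which 16 were matched. None was called by edgeR's test or by DESeq2, 5 of the 16 had an unadjusted p under 0.05, all with a higher level under overexpression, where 8.41% of all genes did in that direction, and the median log2 fold change was 0.16. Crag, which directs basement membrane proteins to the basal side of epithelia, had 11.6, 13.9 and 16.6 CPM in the control and 26.6, 18.9 and 17.99 CPM under overexpression (log2 fold change 0.59, edgeR adjusted p = 0.133). Sec31, a coat protein of vesicles leaving the endoplasmic reticulum, had a log2 fold change of 0.44 (edgeR adjusted p = 0.241), and strat, also needed for polarised matrix secretion, one of 0.53 (edgeR adjusted p = 0.248). PH4alphaSG2, a prolyl 4-hydroxylase subunit, was below 1 CPM in every library (edgeR adjusted p = 0.197). Without overexpression replicate 3, Crag and PH4alphaEFB passed the threshold, but in opposite directions. Crag was higher under overexpression and PH4alphaEFB lower. PH4alphaEFB had 16.0, 8.12 and 11.3 CPM in the control and 5.47 and 4.28 CPM in overexpression replicates 1 and 2.

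Of 14 genes for crosslinking and proteolysis of the matrix, 13 were matched, and 1 was called, where 2.81% of all genes were. The gene stl (stall), an ADAMTS metalloprotease, had 20.7, 23.8 and 25.2 CPM in the control and 13.6, 9.89 and 9.14 CPM under overexpression, without overlap. It fell (log2 fold change -1.09, standard error 0.186, edgeR adjusted p = 0.00203). The edgeR adjusted p of stl was 0.0644 without overexpression replicate 2 and 0.683 with the muscle covariate, where its log2 fold change was -0.46. Timp, an inhibitor of matrix metalloproteases, had 10.7, 8.38 and 7.77 CPM in the control and 5.17, 3.60 and 7.64 CPM under overexpression (log2 fold change -0.71, edgeR adjusted p = 0.189). Mp, which encodes the collagen XV and XVIII homologue multiplexin, had a log2 fold change of -0.38 (edgeR adjusted p = 0.263) and Fur1, a furin protease, one of 0.50 (edgeR adjusted p = 0.178). The list median was -0.14.

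Receptors and adhesion proteins that meet the basement membrane were listed as 20 genes, of which 19 were matched. The heparan sulfate proteoglycan dlp, a glypican, was the single call among the 19, where 2.81% of all genes were called. It had 13.4, 14.3 and 14.7 CPM in the control and 21.2, 24.4 and 20.6 CPM under overexpression, and it rose (log2 fold change 0.64, standard error 0.162, edgeR adjusted p = 0.0414). The edgeR adjusted p of dlp was between 0.0619 and 0.209 in the 5 fits that left out a library other than overexpression replicate 3, and 0.0761 with upper-quartile normalization. The adaptor stck, a LIM domain protein of integrin adhesions, had 20.8, 18.7 and 18.1 CPM against 10.3, 12.9 and 14.6 CPM (log2 fold change -0.60, edgeR adjusted p = 0.0840). Lar, a receptor tyrosine phosphatase, had a log2 fold change of 0.49 (edgeR adjusted p = 0.206) and the kindlin Fit2 one of 0.57 (edgeR adjusted p = 0.308). The median of the list was 0.17, and its summed level was 420 to 431 CPM in the control and 427 to 442 CPM under overexpression.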

How the data were processed

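RNA-seq of adult testes was analysed in 3 control and 3 overexpression samples. After trimming, the authors mapped reads to dm6 with RNA STAR, ran featureCounts on an older Ensembl annotation and deposited raw counts per gene. Strand and multi-mapping settings are not given in the sources used here. The authors' table of fold changes and p-values and a table with 6 unassigned sample columns were not used. Rows that name no gene numbered 0.

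Groups were compared over 17559 genes by edgeR 4.0.16 under R 4.3.3 (TMM, older quasi-likelihood method, robust prior, no filter). CPM are counts-per-million of TMM-scaled totals, and totals were 18047619 to 27789620 counts. Standard errors are the log2 fold change divided by the square root of F. On simulated data the test recovered most changes of the larger size and few of the smaller, and among its calls the share of unchanged genes was above the nominal threshold. Symbols, positions and exon lengths came from Ensembl release 115 of the same assembly. Sequences were not used here.

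The members and lists were chosen with earlier results of these data known. The genes named were the members, the 4 lowest p of each matrix list and the 5 nearest profiles. Single markers were chosen after their values were seen. Alternatives were RLE and upper-quartile scaling, DESeq2 1.42.0, 2 filters on low counts, the newer method, a replicate block, a non-robust prior, each library left out, a threshold of 0.01, and accessory gland or muscle covariates. Ratios within accessory gland classes were added after seeing the data.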

Additional observations from a re-analysis of the deposited data

How the results depend on the processing

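Over all alternatives, 162 values of the 9 members were computed, of which 7 changed sign and 4, all of SPARC, passed the threshold. The members called numbered 0 by the reported test and 1 with upper-quartile normalization, DESeq2, without control replicate 3 and with the accessory gland covariate, so they ranged from 0 to 1 without one library. The sign changes were LanA (-0.05) and wb (-0.07) with the muscle covariate, wb (-0.0042) with upper-quartile normalization and Ndg (0.11) within accessory-gland-rich libraries. Without one library, LanA ranged from -0.03 to 0.40, LanB1 from -0.07 to 0.43 and LanB2 from -0.02 to 0.35. The log2 ratio difference ranged from -0.12 to 0.22 for LanB1 over LanB2, from -0.34 to 0.06 for wb over LanA and from -0.16 to 0.89 for SPARC over Col4a1. The ratio of Ndg to trol was not run. Calls over all genes numbered 493, and 742 with DESeq2, 236 with the prior that is not robust, 251 at an adjusted p under 0.01, 62 with the muscle covariate and 205 to 923 without one library. The collagen folding list had 0 to 2 calls without one library. The crosslinking and proteolysis list had 1 call, 0 with the muscle covariate and 0 to 2 without one library. The receptor list had 1 call, 2 with DESeq2, 0 with the newer quasi-likelihood method, the prior that is not robust, the replicate block, the threshold of 0.01 and the muscle covariate, and 0 to 2 without one library. The cause was not tested.

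With the replicate block, 0 members were called, and Col4a1 had a log2 fold change of -0.99 (edgeR adjusted p = 0.127). Deviations of same-numbered samples correlated at -0.58, 0.28 and 0.54 across genes. Samples with different numbers also correlated, with 0.55 for control replicate 1 and overexpression replicate 3 and 0.72 for control replicate 2 and overexpression replicate 1. These values therefore cannot show whether same-numbered samples were prepared together, and the labels give only a number. Counts of 23 to 74 per library limit what can be seen for Ndg and Ppn.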

Other observations

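Of the 6 matched prolyl 4-hydroxylase alpha subunits, which modify collagen chains before secretion, 3 were highest in the 3 libraries rich in accessory gland RNA (chosen after their values were seen). PH4alphaNE2 had 56.1, 1.08 and 30.6 CPM in the control and 2.78, 6.24 and 56.7 CPM under overexpression, and PH4alphaSG1 had 12.1, 0.411 and 7.60 CPM and 0.694, 2.46 and 13.2 CPM. Of those 3 libraries, control replicate 1 had the highest collagen IV level and the other two the lowest. PH4alphaEFB had 16.0, 8.12 and 11.3 CPM in the control and 5.47, 4.28 and 17.2 CPM under overexpression, with the same 3 libraries highest. The other subunits differed: PH4alphaMP had 2.09, 2.42 and 2.98 CPM in the control and 3.78, 3.83 and 3.49 CPM under overexpression, PH4alphaNE1 had 1.76, 0.720 and 0.760 CPM and 0.964, 1.28 and 2.02 CPM, and PH4alphaSG2 was below 1 CPM throughout. The common beta integrin mys had 21.1, 19.6 and 32.4 CPM in the control and 32.4, 26.8 and 34.8 CPM under overexpression (edgeR adjusted p = 0.427).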
